A study of Mus musculus with 6 samples.

Results

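The 38 genes described here encode the folding and quality-control machinery of the endoplasmic reticulum (ER) and the sensors that regulate it. They were taken by symbol from the deposited expression table, which held all 38 of them among 17256 genes. The table covers RNA-seq of the epithelium of the antrum, the lower stomach, in 6 libraries from C57BL/6 mice. In all 6, atrophic gastritis had been induced with MNNG, an alkylating carcinogen, and a drug spelled Ranitine in the labels, over 20 weeks. One group of 3 libraries then had vehicle for 2 weeks, and the other group of 3 had PEEPA-P5 by gavage for 2 weeks. PEEPA-P5 is known here by that code name only, and the 6 libraries include none from mice without induced gastritis. Whether each library came from its own mouse is not stated in the labels. The p-values therefore weigh the difference between groups only against the spread between libraries, which may be technical and not a spread between mice.

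Secretory and membrane proteins enter the ER through a translocon and are folded in the lumen by chaperones, by J proteins that drive them, and by disulphide isomerases. Proteins that fail to fold are pulled back to the cytosol and destroyed, a process named ER-associated degradation (ERAD). When unfolded protein accumulates, the sensors IRE1, PERK and ATF6 start the unfolded protein response, which raises transcription of chaperone and ERAD genes. The stomach lining secretes mucins and digestive enzymes, and mucous epithelia carry a second IRE1, encoded by Ern2, beside the widely expressed one encoded by Ern1.

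The best-known DNA element of this response is the ER stress response element, or ERSE, which is CCAAT and CCACG with 9 bases of any kind between them. It was sought on both strands in RefSeq promoter windows of build GRCm38.p6, from 250 bases before to 50 bases after a start site. Of the 32 listed genes with a window, 9 held the element, or 28.1%, against 18 of 10446 tested genes with a window, or 0.172%. Among the other 9 of those 18 genes, 5 were higher and 4 lower with PEEPA-P5, with a median log2 difference of 0.02. The element was defined on genes of this kind, so its presence is a description of the list. The stretches that carry it follow, read on the gene's own strand, with the element in capitals, because ERSE was the stress element found in the most listed genes, although 23 of the 32 lack it. In Calr, Creld2, Derl3 and the second copy of Hsp90b1 the element lies on the opposite strand and reads from CGTGG to ATTGG.
Calr (chr8:84847065-84847103, minus strand): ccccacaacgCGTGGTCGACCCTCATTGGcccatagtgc
Canx (chr11:50325790-50325828, minus strand): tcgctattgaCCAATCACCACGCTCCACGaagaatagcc
Creld2 (chr15:88819510-88819548, plus strand): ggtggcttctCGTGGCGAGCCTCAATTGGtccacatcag
Derl3 (chr10:75893232-75893270, plus strand): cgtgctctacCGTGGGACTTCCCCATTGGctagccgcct
Dnajc3 (chr14:118937817-118937855, plus strand): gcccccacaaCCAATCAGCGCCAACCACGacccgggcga
Hsp90b1 (chr10:86705523-86705666, minus strand): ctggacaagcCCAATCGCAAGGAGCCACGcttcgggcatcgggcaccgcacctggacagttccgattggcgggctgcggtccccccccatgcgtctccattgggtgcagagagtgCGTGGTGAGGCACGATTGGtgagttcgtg
Hspa5 (chr2:34772015-34772053, plus strand): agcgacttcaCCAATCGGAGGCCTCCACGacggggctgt
Pdia6 (chr12:17266481-17266519, plus strand): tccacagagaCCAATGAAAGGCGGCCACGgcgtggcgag
Syvn1 (chr19:6046522-6046560, plus strand): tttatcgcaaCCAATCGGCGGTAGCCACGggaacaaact
Hsp90b1 was the only one of the 9 with 2 copies. For Dnajc3 alone of the 9, the bases after the start site were not found near the start of its GENCODE M21 transcript. Its positions are therefore less certain. The related element ERSE-II, which is ATTGG and CCACG with 1 base between them, was found in Dnajb11 and Herpud1, and in 0.0862% of tested genes with a window. The letters TGACGTGG, known as UPRE, occurred in Txndc5 and in 0.967% of tested genes with a window. The letters TGATGNAAN, read by ATF4 with a C/EBP partner, occurred in Herpud1 and Txndc5 and in 2.78% of tested genes with a window.

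**Figure D1:**
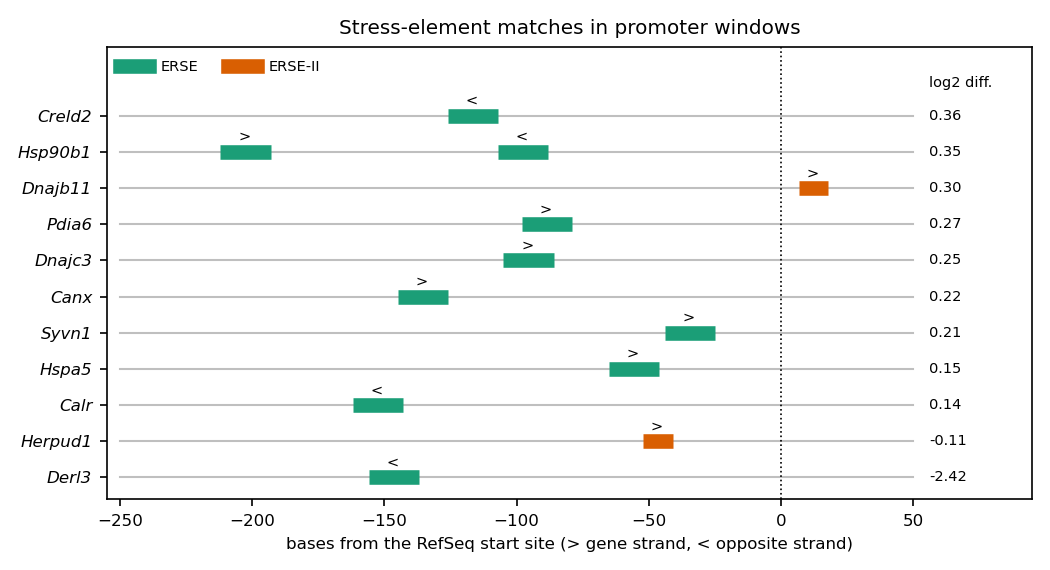
Positions of ERSE (green) and ERSE-II (orange) matches in the promoter windows of 11 genes, in bases from the RefSeq start site, with the log2 difference of each gene's counts between PEEPA-P5 and vehicle at the right. Elements lie on either strand (> or <), and the genes that carry them span log2 differences from -2.42 in Derl3 to 0.36 in Creld2.

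Total counts ran from 16388852 to 16903559 per library. Epithelial markers were abundant, with Krt8 between 5174 and 8506 CPM (counts scaled to library size) and Cdh1 between 864 and 1247 CPM. Gast, the antral hormone gastrin, was between 48.0 and 1859 CPM, with the lowest values in PEEPA-P5 3 and vehicle 3. Markers of chief and parietal cells, which lie mainly in the upper stomach, were also present. Pgc, a pepsinogen on the chief cell list, took 0.244% of the counts of PEEPA-P5 3 and 8.01% of those of vehicle 3. PEEPA-P5 3 also had the lowest summed level of fibroblast markers, at 25.1 CPM against 153 to 376 CPM in the other 5 libraries. Because these are bulk samples, fewer cells of a type and less RNA per cell cannot be told apart. Several differences depended on vehicle 3 and PEEPA-P5 3. Without both, the log2 difference of 19 of the 38 genes changed sign or moved by more than 1.5 times, and without vehicle 3 or PEEPA-P5 3 alone that of 20 and 14 genes did.

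The levels of the listed genes were compared in TPM, the deposited unit that is scaled for transcript length as well as library size. Together the 38 genes made up 0.395%, 0.391% and 0.306% of all TPM in vehicle 1, 2 and 3. Their share was 0.402%, 0.412% and 0.352% in PEEPA-P5 1, 2 and 3. The groups overlapped, and the library numbered 3 was the lowest of each group. The 5 most abundant genes held between 48.8% and 52.1% of this sum in every library.

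Among the listed genes P4hb, a protein disulphide isomerase, had the highest level, with a mean of 559.5 TPM and a range over libraries of 442 to 603 TPM. Next came Calr, the lectin chaperone calreticulin, at a mean of 462 TPM, and Sec61b, a small subunit of the translocon, at 297 TPM. Hspa5, the ER HSP70 also named BiP, was at 297 TPM, and Pdia3, the isomerase that works with calreticulin, at 285 TPM. P4hb exceeded Calr, and Calr exceeded Sec61b, in all 6 libraries. Sec61b, Hspa5 and Pdia3 did not differ beyond their spread, with ranges of 237 to 342 TPM, 261 to 326 TPM and 227 to 322 TPM. This order holds within the list only. Agr2, one of the other folding and oxidation genes described further below, exceeded P4hb in every library, at 1353 to 2573 TPM.

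Most sensors lay at the lower end. Ern1 had a mean of 4.05 TPM, Eif2ak3, which encodes PERK, 7.55 TPM, and Atf6 7.77 TPM. Mbtps2, the membrane protease that finishes ATF6 cleavage, was at 4.89 TPM. Xbp1, the transcription factor whose mRNA is spliced by IRE1, was by contrast at a mean of 125 TPM and Ern2 at 45.2 TPM. By mean both lay above chaperones such as Creld2 at 40.3 TPM and Hyou1 at 32.3 TPM. Ern2 was, however, below Creld2 in PEEPA-P5 2 and 3, at 40.4 and 30.8 TPM against 46.2 and 43.1 TPM. In PEEPA-P5 3 Ern2 was also below Hyou1, which was there at 32.3 TPM. For Xbp1, gene-level counts do not tell its spliced form from the unspliced one. Derl3, a degradation factor of professional secretory cells, was the lowest of all, at 1.10 TPM, whereas Derl1 and Derl2 were at 26.96 and 13.5 TPM.

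**Figure D2:**
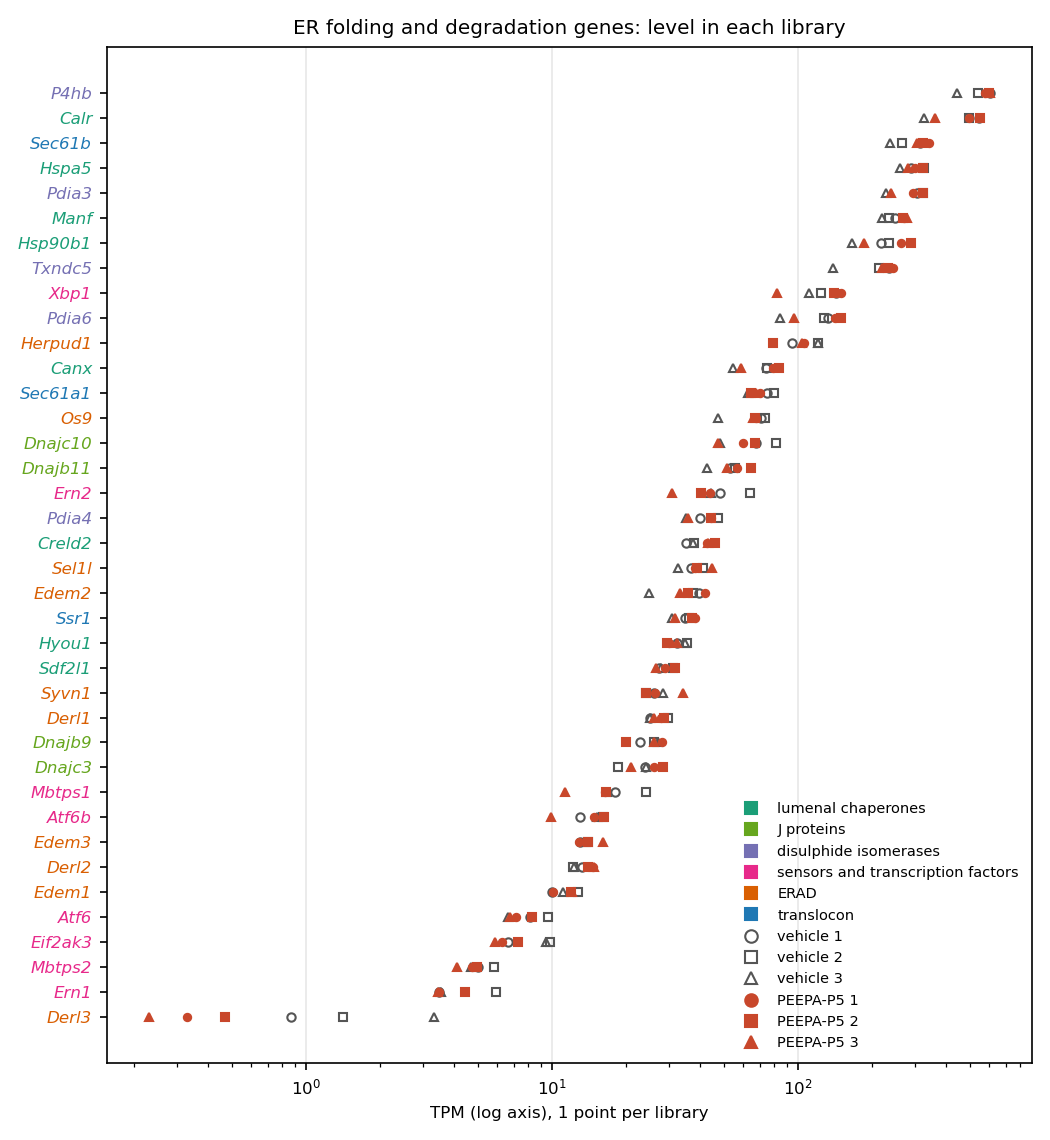
TPM of the 38 genes in each of the 6 libraries on a log axis, ordered by mean level, with vehicle as open grey and PEEPA-P5 as filled red symbols, a symbol shape for each library number, and gene names coloured by role. Disulphide isomerases and chaperones fill the upper end, at up to 603 TPM for P4hb, the sensors other than Xbp1 and Ern2 lie in the lower part, and Derl3 is lowest.

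No listed gene passed the threshold of the comparison between PEEPA-P5 and vehicle. All 38 passed the filter on low counts, which left 13071 genes. By edgeR's quasi-likelihood test at a Benjamini-Hochberg adjusted p under 0.05, 0 of the 38 were called, where 0% of all tested genes were called. The lowest adjusted p among the 38 was 0.412. DESeq2 also called 0 of them, while calling 0.788% of 12810 genes, and limma-voom and limma-trend on log2 TPM called 0 too.

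At an unadjusted p under 0.05, 5 listed genes were higher with PEEPA-P5, or 13.2%, against a background of 5.92% of all tested genes. They are Hsp90b1, Manf, Creld2, Dnajb11 and Sec61b. At the same limit 3 were lower, or 7.89%, against a background of 6.14%, namely Ern2, Mbtps1 and Derl3. The share of lower genes was thus near the background. On the log2(TPM + 1) scale only Creld2 stayed under that limit among the higher genes and only Derl3 among the lower ones, where 2.04% and 7.87% of all tested genes did. Without vehicle 2 only Dnajb11 and Derl3 remained, where 2.44% of all tested genes were higher and 2.99% lower, so both counts were near the background. Without PEEPA-P5 1 the higher genes were Manf, Creld2 and Dnajb11, where 4.38% of all tested genes were higher. Among the lower genes Derl3 alone remained without PEEPA-P5 2, without PEEPA-P5 3, or without both libraries numbered 3. The shares of all tested genes that were lower were then 6.82%, 4.92% and 4.48%. In the last case 6 listed genes were higher and 1 lower at that limit, where 3.47% and 4.48% of all tested genes were. With the replicate number as a block 7 were higher and 3 lower, where 6.62% and 7.06% were.

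In CPM scaled by TMM factors, edgeR's correction for library composition, all 3 PEEPA-P5 libraries lay above all 3 vehicle libraries in 10 of the 38 genes, or 26.3%, against 9.74% of all tested genes. They lay below in 4 genes, or 10.5%, against 10.7%. In TPM the groups were separate in 3 genes above, Manf, Creld2 and Derl2, and in 3 genes below, Ern2, Mbtps1 and Derl3, against 4.04% and 12.8% of all tested genes. Without both libraries numbered 3, 2 libraries stand against 2, and the count above was 17, where 21.3% of all tested genes were separate and higher. The count below was then 5, against 21.5%.

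Of the 38 genes, 27 had a log2 difference above 0, or 71.1%, where 49.4% of all tested genes did. The number was 24 without a scaling factor and on the log2(TPM + 1) scale, where 37.3% and 34.8% of all tested genes were above 0. The median log2 difference over the 38 was 0.15, beside -0.0047 over all tested genes, and the quartiles of the 38 were -0.03 and 0.25. Without a scaling factor both medians moved down, to 0.07 and -0.09, and on the log2(TPM + 1) scale they were 0.05 and -0.08. The gap between them was 0.15 with TMM factors, 0.15 without a factor and 0.13 on that TPM scale. The genes are not independent of each other, and no test was made over the list. Counted by library number, 19 of the 38 were higher in every numbered pair, or 50%, against 22.4% of all tested genes. Markers of epithelium moved the same way: 5 of 5 were in the table, and their summed level was 12440 to 15739 CPM with vehicle and 16787 to 19677 CPM with PEEPA-P5. Goblet and intestinal markers, 6 of 6 in the table, summed to 190 to 648 CPM with vehicle and 855 to 1108 CPM with PEEPA-P5. Zg16 and Vil1 made up most of this sum, and the groups of Muc2, Tff3, Spink4 and Cdx2 overlapped. In PEEPA-P5 1 Muc2 and Tff3, at 3.79 and 5.18 CPM, were below all vehicle libraries, and in PEEPA-P5 2 and 3 above them. Parietal cell markers, 6 of 6 in the table, moved the other way, from 713 to 6409 CPM with vehicle to 15.5 to 709 CPM with PEEPA-P5. These 3 sums and that of surface mucous markers did not overlap between groups. Fibroblast markers summed to 153 to 376 CPM and 25.1 to 315 CPM. The part of these shifts in the differences above was not tested.

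**Figure D3:**
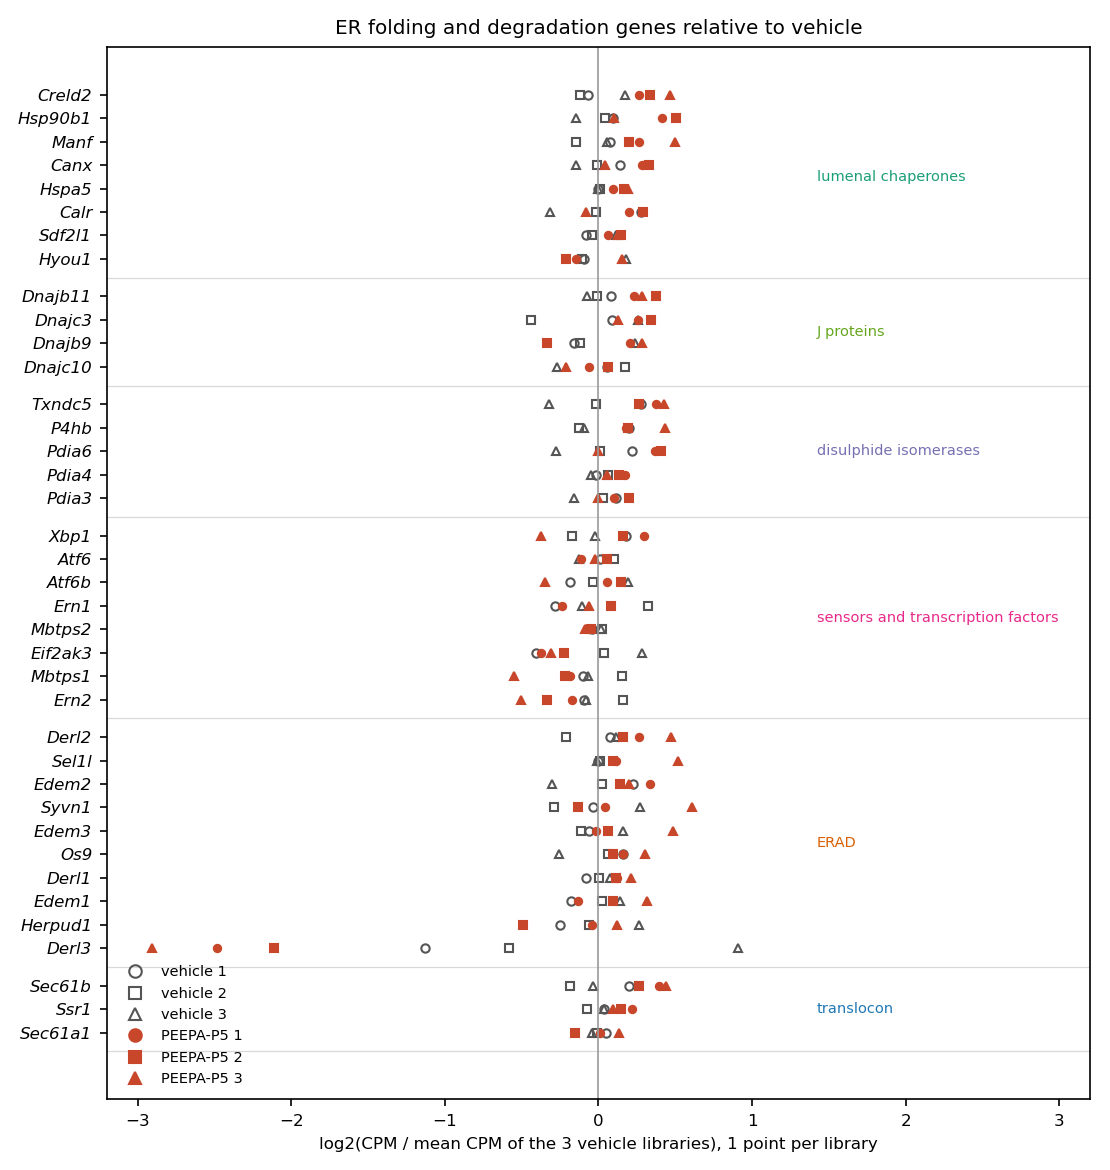
Level of each of the 38 genes in each library, as log2 of its CPM over the mean CPM of the 3 vehicle libraries, grouped by role, with vehicle as open grey and PEEPA-P5 as filled red symbols. PEEPA-P5 libraries lie to the right of all vehicle libraries in 10 genes, among them Creld2 and Dnajb11, and to the left in 4, among them Ern2 and Derl3, which has the widest spread.

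Lumenal chaperones were mostly higher with PEEPA-P5, with 7 of 8 above 0 and a median log2 difference of 0.19. Hspa5 (Entrez 14828), the reference chaperone of the response, was at 649.7, 655 and 651 CPM in vehicle 1, 2 and 3 and at 697, 731 and 744 CPM in PEEPA-P5 1, 2 and 3. The groups did not overlap, because the vehicle libraries lay very close together. Its log2 difference was 0.15 with a standard error (SE) of 0.09 (edgeR adjusted p = 0.508). In TPM its groups overlapped.

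Hsp90b1 (Entrez 22027), the ER form of HSP90 known as GRP94, was at 536, 517 and 453 CPM with vehicle and 668, 712 and 538 CPM with PEEPA-P5. PEEPA-P5 3 was only just above vehicle 1. The log2 difference was 0.35 with an SE of 0.14 (edgeR adjusted p = 0.412). Of its 31-base stretches, 16.9% also occur in transcripts of other genes, most of them in a transcript on the opposite strand, which cannot be told apart without strand.

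Manf (Entrez 74840), a secreted ER stress protein that binds BiP, was at 148, 126 and 146 CPM with vehicle and 168, 161 and 198 CPM with PEEPA-P5. Every PEEPA-P5 library was higher, with a log2 difference of 0.33 and an SE of 0.12 (edgeR adjusted p = 0.412), and 8.85% of its sequence is shared, in part with genes on the opposite strand. Creld2 (Entrez 76737), a secreted cysteine-rich ER stress protein, was at 38.2, 36.7 and 45.1 CPM with vehicle and 48.0, 50.6 and 55.4 CPM with PEEPA-P5. Here too the groups were separate, and the log2 difference was 0.36 with an SE of 0.12 (edgeR adjusted p = 0.412). Creld2 and Manf were separate in TPM as well.

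Calr (Entrez 12317) showed how wide the libraries could spread. It was at 903, 738 and 599 CPM with vehicle and 856, 914 and 707 CPM with PEEPA-P5, and the groups overlapped widely (log2 difference 0.14, edgeR adjusted p = 0.733). Without vehicle 3 its log2 difference was 0.01 and without PEEPA-P5 3 it was 0.25. Canx, the membrane-bound partner of calreticulin, had a log2 difference of 0.22, and Sdf2l1, a partner of BiP in the lumen, one of 0.11, or 0.17 without vehicle 3. Hyou1, an exchange factor for BiP, was the single chaperone below 0, at -0.06, and was at 0.04 without vehicle 3, 0.01 without PEEPA-P5 2 and -0.17 without PEEPA-P5 3.

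Of the J proteins, which hand substrates to BiP, 3 of 4 were above 0, or 2 of 4 without a scaling factor, where Dnajb9 was at -0.01. Dnajb11 (Entrez 67838), which brings unfolded proteins to BiP, was at 90.8, 85.0 and 81.3 CPM with vehicle and 101, 111 and 105 CPM with PEEPA-P5. The groups were well apart for their spread, with a log2 difference of 0.30 and an SE of 0.09 (edgeR adjusted p = 0.412). Its difference was under an unadjusted p of 0.05 with each single library left out. That limit was not met without a scaling factor or on the log2(TPM + 1) scale, and in TPM the groups of Dnajb11 overlapped. Dnajc3, which restrains PERK, had a log2 difference of 0.25, Dnajb9 0.08 and Dnajc10, a reductase that acts before ERAD, -0.07. None of these 3 was separate between groups. Without both libraries numbered 3 they were at 0.46, 0.10 and -0.11, and without PEEPA-P5 3 Dnajb9 was at -0.04 and Dnajc10 at 0.00.

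All 5 disulphide isomerases were above 0, also under each of the 17 alternatives, with a median log2 difference of 0.27. None was under an unadjusted p of 0.05 by edgeR with all 6 libraries, its expression filter and no block. Under some alternatives Txndc5, Pdia6 or P4hb was, for example Pdia6 with the replicate block and Txndc5 with DESeq2 and limma-voom. P4hb (Entrez 18453) was at 1545, 1236 and 1261 CPM with vehicle and 1527, 1540.4 and 1817 CPM with PEEPA-P5. Vehicle 1 lay among the PEEPA-P5 libraries, and PEEPA-P5 3 was the highest (log2 difference 0.27, SE 0.14, edgeR adjusted p = 0.453). Pdia3 (Entrez 14827) was at 717, 677 and 594 CPM with vehicle and 713, 759 and 661 CPM with PEEPA-P5, with overlapping groups and a log2 difference of 0.10. Txndc5, Pdia6 and Pdia4 had log2 differences of 0.36, 0.27 and 0.12. Without both libraries numbered 3, P4hb was at 0.14 and Txndc5 at 0.19, and without vehicle 3 alone Pdia6 was at 0.15 and Pdia3 at 0.03.

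The sensors and transcription factors, a role that here includes the proteases Mbtps1 and Mbtps2, mostly lay below 0, unlike the listed folding genes. Of the 8 in this role, 1 was above 0, where 49.4% of all tested genes were, with a median log2 difference of -0.07. Ern1, Atf6, Atf6b and Mbtps2 were close to 0, at -0.07, -0.02, -0.03 and -0.07. Without a scaling factor 0 of 8 were above 0. With vehicle 2, vehicle 3, PEEPA-P5 1, PEEPA-P5 3 or both libraries numbered 3 left out, 2 of 8 were. Other folding and oxidation genes, described further below, had a median of -0.05, with 18 of 40 above 0. The difference between the roles was not tested. Ern2 (Entrez 26918) was at 128, 153 and 129 CPM with vehicle and 122, 109 and 96.6 CPM with PEEPA-P5. All PEEPA-P5 libraries were lower, the nearest by a narrow margin, and the log2 difference was -0.33 with an SE of 0.12 (edgeR adjusted p = 0.412). Ern1 (Entrez 78943) was at 12.8, 19.4 and 14.4 CPM with vehicle and 13.2, 16.4 and 14.9 CPM with PEEPA-P5, which overlapped throughout.

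The level of Ern2 over that of Ern1, in TPM, was 13.8, 10.8 and 12.5 with vehicle and 12.7, 9.07 and 8.93 with PEEPA-P5. The ratio overlapped between groups (log2 difference -0.29, exact permutation p = 0.3, two-sided, n = 3 each, the smallest possible being 0.1). Ern2 was thus the more abundant IRE1 transcript in every library. Markers of surface mucous cells, 5 of 5 in the table, summed to 114114 to 135376 CPM with vehicle and 145642 to 180388 CPM with PEEPA-P5. Markers of gland and neck mucous cells, 5 of 5 in the table, summed to 6669 to 9124 CPM and 7080 to 7885 CPM, most of it Tff2. Muc6, the gland mucin among them, was at 829, 1988 and 2872 CPM with vehicle and 690, 885 and 463 CPM with PEEPA-P5. It was lower in every numbered pair, with a log2 difference of -1.48 (edgeR adjusted p = 0.412). Their part in the Ern2 values was not tested.

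The groups of the next 3 genes overlapped. Atf6 (Entrez 226641) was at 57.6, 61.5 and 52.5 CPM with vehicle and 52.8, 59.5 and 56.3 CPM with PEEPA-P5, a log2 difference of -0.02. Eif2ak3 (Entrez 13666) was at 26.6, 36.3 and 43.1 CPM with vehicle and 27.3, 30.2 and 28.6 CPM with PEEPA-P5, where vehicle 1 was the lowest of all. Its log2 difference of -0.30 had an SE of 0.18 (edgeR adjusted p = 0.502), and without vehicle 3 it was -0.13. Xbp1 (Entrez 22433) was at 279, 218 and 242 CPM with vehicle and 302, 275 and 190.2 CPM with PEEPA-P5. PEEPA-P5 held both its highest and its lowest library, and its log2 difference of 0.06 turned to -0.01 without a scaling factor and -0.07 on the log2(TPM + 1) scale, and was 0.23 without PEEPA-P5 3.

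Mbtps1 and Mbtps2 encode the Golgi proteases S1P and S2P, which cut ATF6 and also the sterol regulator SREBP. Mbtps1 (Entrez 56453) was at 70.5, 84.2 and 72.4 CPM with vehicle and 66.4, 65.1 and 51.8 CPM with PEEPA-P5. All PEEPA-P5 libraries were lower, PEEPA-P5 3 by the most, with a log2 difference of -0.31 and an SE of 0.13 (edgeR adjusted p = 0.412), or -0.20 without PEEPA-P5 3. Mbtps2 (Entrez 270669) was at 22.4, 23.4 and 23.3 CPM with vehicle and 22.0, 22.2 and 21.6 CPM with PEEPA-P5. These groups were separate by a very small margin, at a log2 difference of -0.07, and 36.8% of its sequence is shared, nearly all of it with Yy2, a gene within it. Atf6b, a relative of Atf6, had a log2 difference of -0.03, which was 0.21 without both libraries numbered 3.

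Of the 10 ERAD genes, 8 were above 0, with a median log2 difference of 0.19, and 6 were without PEEPA-P5 3. Sel1l (Entrez 20338), the adaptor of the ubiquitin ligase HRD1, was at 217, 218 and 215 CPM with vehicle and 234, 231 and 310.4 CPM with PEEPA-P5. The groups were separate, and PEEPA-P5 3 stood well above the other two (log2 difference 0.25, SE 0.13, edgeR adjusted p = 0.468). Leaving out PEEPA-P5 3 gave a log2 difference of 0.11, and leaving out vehicle 3 as well gave 0.10. Syvn1, which encodes HRD1 itself, had a log2 difference of 0.21, and of -0.04 without PEEPA-P5 3. Os9, the lectin that passes substrates to this ligase, was at 0.19, and at 0.02 without both libraries numbered 3. Edem1, Edem2 and Edem3, which mark misfolded glycoproteins, were at 0.10, 0.23 and 0.19. Without PEEPA-P5 3 Edem1 was at -0.01 and Edem3 at 0.03, and without vehicle 3 Edem2 was at 0.10. Herpud1, a scaffold of the ligase, was at -0.11, or -0.24 without PEEPA-P5 3 and 0.04 without vehicle 3.

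The 3 derlin genes, which encode membrane proteins of the ERAD channel, did not share a direction. Derl1 (Entrez 67819) was at 71.1, 75.3 and 79.1 CPM with vehicle and 81.7, 81.3 and 87.2 CPM with PEEPA-P5, with a log2 difference of 0.15 and an SE of 0.09. Derl2 (Entrez 116891) was at 44.7, 36.6 and 45.9 CPM with vehicle and 51.0, 47.3 and 58.8 CPM with PEEPA-P5, with a log2 difference of 0.30 and an SE of 0.13. Both were higher in all PEEPA-P5 libraries and had edgeR adjusted p-values of 0.5 and 0.412. Derl3 (Entrez 70377) had 16, 25 and 59 counts with vehicle and 6, 8 and 4 counts with PEEPA-P5. In CPM these were 0.92, 1.35 and 3.78 against 0.36, 0.47 and 0.27, so all PEEPA-P5 libraries were lower. The log2 difference was -2.42 with an SE of 0.66 (edgeR adjusted p = 0.412). Without vehicle 3, its highest library, the log2 difference was -1.61, without both libraries numbered 3 it was -1.44, and on the log2(TPM + 1) scale it was -1.01.

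Derl3 was the one listed gene with a log2 difference beyond 0.5 in size, where 19.4% of all tested genes had one. The summed level of chief cell markers, most of it Pgc, was highest and lowest in the same libraries as Derl3. Chief cells are rich in ER. All 5 markers were in the table, and the sum was 9496, 24277 and 89724 CPM in vehicle 1, 2 and 3 and 7573, 10220.5 and 2724 CPM in PEEPA-P5 1, 2 and 3. The orders of the sum and of Derl3 differed only in PEEPA-P5 2 and vehicle 1, which changed places, and of the 5 markers Bhlha15 had another lowest library, PEEPA-P5 2. Plasma cells also carry Derl3. Of the 9 markers of plasma and B cells, Jchain was at 14.8, 7.72 and 34.7 CPM with vehicle and 3.85, 18.9 and 1.95 CPM with PEEPA-P5, and Mzb1 and Tnfrsf17 did not exceed 0.64 and 0.05 CPM. Mzb1 had 9, 2 and 10 counts with vehicle and 1, 0 and 0 counts with PEEPA-P5. Irf4 and Pou2af1, at no more than 0.38 and 1.13 CPM, were also lower in all PEEPA-P5 libraries. Prdm1 was at 9.84, 8.31 and 7.43 CPM with vehicle and 10.5, 11.7 and 9.01 CPM with PEEPA-P5. It overlapped between groups but was higher in every numbered pair. Cd79a and Cd79b, at no more than 0.38 and 0.29 CPM, overlapped between groups. The sum of the 9 was 211.8 to 216 CPM with vehicle and 218 to 239 CPM with PEEPA-P5, but Sdc1, which epithelium also expresses, made up 167 to 219 CPM of it. Their part in the Derl3 values was not tested.

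**Figure D4:**
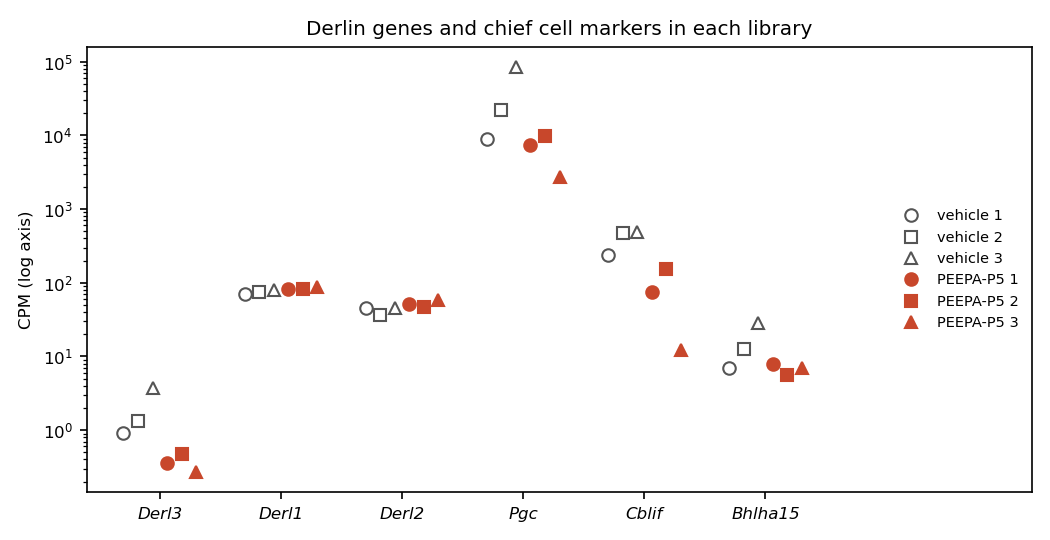
CPM of the 3 derlin genes and of the chief cell markers Pgc, Cblif and Bhlha15 in each of the 6 libraries on a log axis, with vehicle as open grey and PEEPA-P5 as filled red symbols. Derl1 and Derl2 stay within a narrow band near 37 to 87 CPM, while Derl3 and Pgc both peak in vehicle 3 and are lowest in PEEPA-P5 3.

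The translocon genes were at log2 differences of 0.37 for Sec61b, 0.16 for Ssr1 and 0.00 for Sec61a1, the pore subunit, whose sign changed with the scaling. Sec61b (Entrez 66212) was at 89.2, 68.3 and 75.7 CPM with vehicle and 102, 93.2 and 105 CPM with PEEPA-P5. Every PEEPA-P5 library was higher (SE 0.12, edgeR adjusted p = 0.412), but in TPM the groups overlapped. Its sequence is shared at 41.97% of its stretches, mostly with one predicted gene, so its counts are uncertain, although its deposited counts were whole in all 6 libraries. Ssr1 (Entrez 107513), a subunit of the translocon-associated protein complex, was at 189, 175 and 188 CPM with vehicle and 214, 204 and 197 CPM with PEEPA-P5. These groups were separate too, with an SE of 0.09 (edgeR adjusted p = 0.485).

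Genes with and without the promoter element were also set side by side. Of the 9 with ERSE, 8 had a log2 difference above 0, with a median of 0.22, and 3 were separate and higher. Of the 23 with a window and no ERSE, 16 were above 0, with a median of 0.11, and 5 were separate and higher. In addition 1 of the 9 and 2 of the 23 were separate and lower. Of all tested genes 49.4% were above 0, 9.74% were separate and higher, and 10.7% were separate and lower. The ranges overlapped, from -2.42 to 0.36 with the element and from -0.31 to 0.37 without it. Derl3 and Hspa5 both carry a copy and lay on opposite sides of 0.

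A further 138 genes of the same pathways, in 4 lists, were read beside the 38, and 135 of them were tested. At an unadjusted p under 0.05, 8 of the 135 were higher and 6 lower, or 5.93% and 4.44%, near the background, and 0 passed the adjusted threshold. Their median log2 difference was 0.04. Other folding and oxidation genes were not shifted upward as a list, with 18 of 40 above 0 and a median of -0.05. At that limit 1 was higher and 4 lower, or 2.5% and 10%, against 5.92% and 6.14% of all tested genes. In 10% of this list the groups were separate and higher, and in 22.5% separate and lower, against 9.74% and 10.7% of all tested genes.

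Sdf2, the relative of Sdf2l1, was at 57.9, 49.4 and 49.0 CPM with vehicle and 61.2, 58.1 and 72.2 CPM with PEEPA-P5. H6pd, which makes NADPH in the ER lumen, was at 66.3, 76.5 and 66.4 CPM with vehicle and 46.6, 45.7 and 43.8 CPM with PEEPA-P5. H6pd was clearly separate, with a log2 difference of -0.62 and an SE of 0.10 (edgeR adjusted p = 0.412). Tmx4, a thioredoxin-like membrane protein of the ER, was at 20.0, 25.2 and 27.5 CPM with vehicle and 16.3, 14.5 and 15.3 CPM with PEEPA-P5. Its relative Tmx2 was at 63.4, 76.5 and 110.2 CPM with vehicle and 57.8, 63.9 and 50.6 CPM with PEEPA-P5. Tmx4 was separate between groups and Tmx2 was not. Pdia2, the isomerase of pancreas and stomach, was at 17.6, 75.1 and 135 CPM with vehicle and 1.51, 19.8 and 0.47 CPM with PEEPA-P5. Its highest library was vehicle 3 and its lowest PEEPA-P5 3, as with Derl3 and Pgc, and its groups overlapped.

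Other ERAD genes stayed near vehicle, with 23 of 38 above 0 and a median log2 difference of 0.03. Svip, an inhibitor of ERAD that binds the ATPase VCP, was at 10.7, 10.9 and 9.93 CPM with vehicle and 13.6, 15.2 and 12.2 CPM with PEEPA-P5. Selenok, an ER selenoprotein that joins the ERAD complex, was at 77.3, 63.1 and 74.9 CPM with vehicle and 80.1, 85.3 and 96.2 CPM with PEEPA-P5. Both were separate and higher with PEEPA-P5. Genes of translocation, signal peptide removal and N-glycan transfer had 23 of 29 above 0 and a median of 0.11. Of these Dad1, a subunit of the oligosaccharyltransferase, was at 192, 159.7 and 185 CPM with vehicle and 226, 195 and 260.5 CPM with PEEPA-P5.

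Response regulators split evenly, with 14 of 28 above 0. At an unadjusted p under 0.05, 4 were higher and 2 lower, or 14.3% and 7.14%. Over all tested genes these shares were 5.92% and 6.14%. Atf4, the transcription factor downstream of PERK, was at 237, 222 and 222 CPM with vehicle and 327, 274 and 298 CPM with PEEPA-P5. Ppp1r15b, a phosphatase subunit that reverses PERK's effect on translation, was at 151, 117 and 131 CPM with vehicle and 182, 172 and 266 CPM with PEEPA-P5. Both were separate, with log2 differences of 0.40 and 0.63. Bcap31, an ER export and quality-control receptor, was at 163, 129 and 144 CPM with vehicle and 174, 174 and 181 CPM with PEEPA-P5. Creb3l3, a membrane-bound factor cut by the same proteases as ATF6, was at 4.83, 6.20 and 5.12 CPM with vehicle and 5.54, 9.87 and 12.8 CPM with PEEPA-P5, and its groups overlapped. On the lower side, Creb3l2 of the same family was separate, at 20.5, 27.1 and 28.0 CPM with vehicle and 16.5, 18.4 and 18.0 CPM with PEEPA-P5. Bhlha15, a chief cell factor that Xbp1 controls, overlapped, at 6.90, 12.7 and 28.1 CPM with vehicle and 7.89, 5.55 and 7.06 CPM with PEEPA-P5. In all 4 lists the smallest adjusted p was 0.412.

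**Figure D5:**
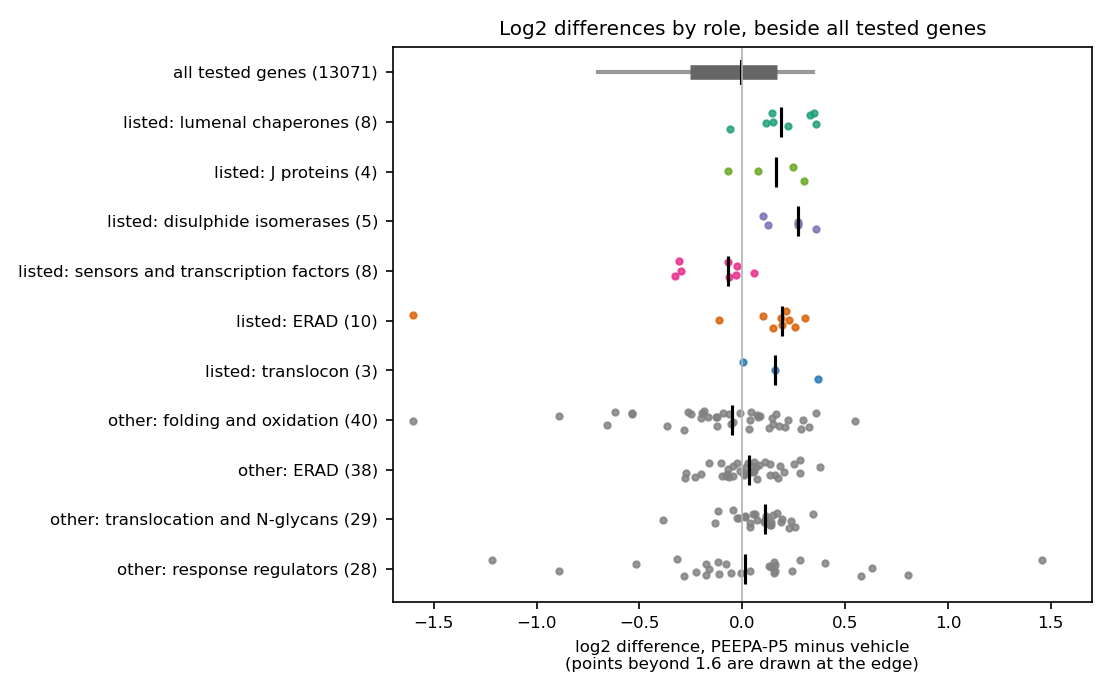
Log2 differences of PEEPA-P5 against vehicle, 1 point per gene, for the 38 genes by role (coloured) and for the 4 lists of other pathway genes (grey), with black ticks at medians and the number tested in parentheses; for all 13071 genes the thick bar spans the quartiles and the thin line the 10th to 90th percentile. The listed genes other than the sensors centre to the right of 0, at medians of 0.16 to 0.27, the sensors at -0.07, and the points drawn at the left edge are Derl3 and Pdia2.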

How the data were processed

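The submitters' processing notes name Bowtie2 2.2.5, RSEM 1.2.12 and build mm9, without roles or settings. Per the file headers, each library's deposited values are an expected count per gene, which is not normalized, and FPKM and TPM values, which the authors scaled for depth and length. FPKM and the authors' group means were not used. Expected counts were rounded, since 9.82% were not whole. The main test was edgeR 4.0.16 under R 4.3.3: a robust quasi-likelihood fit with TMM factors, edgeR's expression filter and no covariates, with Benjamini-Hochberg adjustment over 13071 genes at 0.05. All log2 differences are from that fit unless another is named, and CPM uses TMM-scaled library sizes.

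The 38 genes and all lists were chosen with earlier results of these data known. Values per library are given for listed genes at an unadjusted p under 0.05, with separate groups or with an absolute log2 difference of 1 or more, for the 5 most abundant, and for Hspa5, Xbp1, Ern1, Ern2, Atf6 and Eif2ak3. Of each other pathway list, up to 4 genes per direction under that p and reaching 1 CPM were named. The 13 marker lists had 75 of 76 entries in the table. Shared sequence is the share of 31-base stretches that occur in other genes' GENCODE M21 transcripts.

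No library pair agreed within sampling noise, the lowest chi-square per degree of freedom being 13.3. The labels number each group's libraries 1 to 3. Equal numbers had deviations from their group means that correlated at 0.260, 0.357 and 0.230, which met the limit for pairs, although the labels name nothing that the numbers share. Vehicle 2 and PEEPA-P5 1 correlated at 0.163. The number therefore entered one alternative as a block. Other alternatives were DESeq2 1.42.0, limma-voom and limma-trend (limma 3.58.1), other scalings and filters, and leaving out libraries. The edgeR step was tested on simulated counts with a single level of spread and with larger differences than most listed genes had. It therefore does not show how well differences of their size are found.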

Additional observations from a re-analysis of the deposited data

How the results depend on the processing

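None of 645 values of the 38 genes under 17 alternatives passed the adjusted threshold, and 609 kept their sign, while 36, in 11 genes, changed it. The cause of the changes was not tested. Over all genes DESeq2 called 39 higher and 62 lower, and leaving out one library in turn gave 0 to 1 higher. With the replicate block, 7 listed genes were higher and 3 lower at an unadjusted p under 0.05, where 6.62% and 7.06% of all tested genes were, with a median of 0.15, and no adjusted call changed. At that limit 3 were higher without a scaling factor, and 1 was higher and 1 lower on both TPM scales. With both libraries numbered 3 left out 1 was lower, and leaving out a single library gave 1 to 7 higher and 1 to 3 lower. Over all tested genes the shares at that limit were 2.39% higher without a scaling factor and 4.48% lower without both libraries numbered 3. On the TPM scales with pseudocounts of 1 and 0.1 they were 2.04% and 2.01% higher and 7.87% and 7.27% lower. With a single library left out they were 2.44% to 7.77% higher and 2.67% to 7.83% lower. Separate and higher genes numbered 5 without a scaling factor, 3 on both TPM scales and 17 without both libraries numbered 3. With a single library left out they numbered 11 to 15. Where libraries are left out, fewer have to be separate. The shares over all tested genes were 5.12%, 4.04%, 21.3% and 12.1% to 18%, in the same order. The median log2 difference was 0.0661 without a scaling factor, 0.1004 with upper-quartile factors, 0.049 and 0.0499 on the TPM scales with pseudocounts of 1 and 0.1, 0.1174 without both libraries numbered 3, and 0.1232 to 0.1601 with one library left out. Without a scaling factor and on those TPM scales, Dnajb9 was at -0.005, -0.0377 and -0.0395, Xbp1 at -0.0097, -0.0657 and -0.0665, and Sec61a1 at -0.0844, -0.1003 and -0.1015. Sec61a1 was also at -7e-04 with limma-voom, -0.048 with upper-quartile factors, -0.0039 with at least 1 CPM in 3 libraries, -0.001 with the replicate block and -0.0848 without both libraries numbered 3, where Atf6b was at 0.212. With one library left out the ranges that crossed 0 were -0.1744 to 0.0401 for Hyou1, -0.0356 to 0.2476 for Dnajb9, -0.1846 to 0.0281 for Dnajc10, -0.0796 to 0.2336 for Xbp1, -0.1871 to 0.125 for Ern1, -0.0833 to 0.0306 for Atf6, -0.1279 to 0.1062 for Atf6b, -0.0134 to 0.2084 for Edem1, -0.0363 to 0.3655 for Syvn1, -0.2437 to 0.0452 for Herpud1 and -0.0639 to 0.0781 for Sec61a1. Derl3, with 4 to 59 counts a library, was not tested under the filter of 1 CPM in 3 libraries, and its low counts limit its precision.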
